A study of Homo sapiens with 24 samples.

Results

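Type II classical cadherins are calcium-dependent adhesion receptors that bind like cadherins on the neighbouring cell through their outermost extracellular domain and hold the actin cytoskeleton through catenins bound to their tail. They are best known from the nervous system, where combinations of them sort neurons and help to place synapses, whereas squamous epithelium relies mainly on the type I cadherins CDH1 and CDH3 and on desmosomal cadherins. H4K20me3, trimethylated lysine 20 of histone H4, is a mark of silent heterochromatin that the methyltransferases SUV420H1 (gene symbol KMT5B) and SUV420H2 (KMT5C) deposit. The 9 genes described here, CDH6, CDH7, CDH8, CDH9, CDH10, CDH12, CDH18, CDH19 and CDH20, are 9 of 19866 protein-coding genes on the primary chromosomes of GRCh38 (hg38). They were chosen from their H4K20me3 coverage in these same libraries, so all values below are a description and carry no test.

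H4K20me3 was mapped by CUT&RUN, in which an antibody-tethered nuclease releases the marked chromatin for sequencing, in HN-SCC-151, an HPV-negative line from a head and neck squamous cell carcinoma labelled as wild type. In the inhibitor arm, 3 libraries of cells given DMSO were set against 3 libraries of cells given A-196, labelled as a SUV420H1 inhibitor and known to inhibit both enzymes, at 2.5 µM. In the siRNA arm, 4 libraries of cells given a control siRNA (siNC) were set against 4 libraries of cells given siRNAs against SUV420H1 (siSUV420H1). All treatments lasted 6 days, and 500000 cells went into each reaction. For each condition 3 dishes are stated, yet the siRNA groups hold 4 libraries each, so some of these may share a dish, and the spread between libraries may in part be technical. Both arms ask where the mark lies after its enzyme is blocked or its gene is silenced. RNA and protein were not analysed here, so neither the squamous identity of the cells nor the depletion of SUV420H1 was checked, and the absence of any peak over KMT5B in all 14 libraries checks nothing.

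Each library is a list of broad peaks without scores or read counts, so its depth is unknown, and a gene without a peak may still carry signal below the calling threshold. The libraries held 8430 to 14675 peaks over 79.6 to 193 Mb. Covered bases were shared most within siNC (Jaccard index of 0.757 to 0.781 between pairs of libraries) and DMSO (0.742 to 0.762), less within siSUV420H1 (0.666 to 0.734) and least within A-196 (0.277 to 0.385). Results in A-196 cells therefore rest on libraries that differ widely among themselves, and A-196 replicate 2, with 13464 peaks, held the most of its group. Coverage is given as kb under peaks in a gene's annotated span with 2 kb added on each side, and a gene is called marked where this reaches 200 bp.

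The genes lie in 3 places. CDH18 (chromosome 5, 19471296 to 20575713) and CDH12 (21750673 to 22853344) span 1104 and 1103 kb, and CDH10 (24487100 to 24644978), CDH9 (26880597 to 27038586) and CDH6 (31193686 to 31329146) follow on the same arm at 158, 158 and 135 kb. CDH20 (chromosome 18, 61333430 to 61555779), CDH7 (65750252 to 65890337) and CDH19 (66501083 to 66604090) span 222, 140 and 103 kb, and CDH8 (chromosome 16, 61647250 to 62036438) spans 389 kb. No other protein-coding gene overlaps any of the 9. Noncoding RNA genes and pseudogenes do, among them CDH18-AS1 within CDH18, and a peak there cannot be assigned to one or the other. Exons and introns were not analysed here.

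RefSeq start sites were found for 8 of the 9 genes, 14 sites in all, and a peak lay over a site in 3 cases, each in 1 library. These were the most downstream site of CDH18 (19886272) in DMSO replicate 2, the site of CDH9 (27038586) in A-196 replicate 1 and that of CDH20 (61333430) in A-196 replicate 2. The 250 bases before these 3 sites, and before the most upstream site of CDH12 (22853344), the gene marked in every treated library but never at a start site, are shown 5′ to 3′ on the strand of the gene, with CpG dinucleotides in capitals. They lie, in this order, at chr5:19886273-19886522 (minus strand), chr5:27038587-27038836 (minus), chr18:61333180-61333429 (plus) and chr5:22853345-22853594 (minus) on GRCh38.p14 and are taken from RefSeq.
CDH18: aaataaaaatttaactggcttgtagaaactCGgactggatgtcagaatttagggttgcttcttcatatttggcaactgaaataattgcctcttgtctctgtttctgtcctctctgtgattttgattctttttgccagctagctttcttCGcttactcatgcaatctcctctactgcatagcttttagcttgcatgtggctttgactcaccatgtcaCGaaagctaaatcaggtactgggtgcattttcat
CDH9: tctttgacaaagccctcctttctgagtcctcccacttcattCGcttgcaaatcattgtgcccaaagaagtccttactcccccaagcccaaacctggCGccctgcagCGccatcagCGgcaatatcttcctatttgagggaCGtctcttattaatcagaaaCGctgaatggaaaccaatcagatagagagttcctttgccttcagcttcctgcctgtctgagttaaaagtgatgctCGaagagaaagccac
CDH20: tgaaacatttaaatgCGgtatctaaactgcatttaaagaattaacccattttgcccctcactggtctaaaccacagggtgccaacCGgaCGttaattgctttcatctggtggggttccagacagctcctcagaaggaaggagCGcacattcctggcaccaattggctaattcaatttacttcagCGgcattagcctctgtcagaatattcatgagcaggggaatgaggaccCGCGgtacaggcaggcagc
CDH12: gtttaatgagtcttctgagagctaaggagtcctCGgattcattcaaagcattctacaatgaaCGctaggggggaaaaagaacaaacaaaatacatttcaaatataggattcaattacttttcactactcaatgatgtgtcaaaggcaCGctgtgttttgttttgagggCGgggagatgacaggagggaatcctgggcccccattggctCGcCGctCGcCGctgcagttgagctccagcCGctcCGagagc
The 4 windows hold 3, 7, 7 and 10 CpG. Over the 14 windows of the family the median is 8 CpG (1 to 33), beside a median of 16 over the 22199 windows of all protein-coding genes in the table.

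In control cells the family carried H4K20me3 almost wholly on CDH18, a cadherin of the central nervous system. Peaks covered 171, 204 and 151 kb of CDH18 in the 3 DMSO libraries and 80.7, 77, 87 and 79 kb in the 4 siNC libraries. The other 8 genes had no peak in any DMSO library. In siNC cells the one exception was CDH7, a cadherin of the developing nervous system, with 5 kb in replicate 2 and 6 kb in replicate 3. Per length, CDH18 held 158 ± 24.1 kb per Mb with DMSO (SD, n = 3) and 73 ± 3.90 kb per Mb with siNC (SD, n = 4). Over the spans of all protein-coding genes the figures were 29 ± 0.803 and 37.2 ± 1.08 kb per Mb. The DMSO and siNC libraries were called against different IgG libraries, one from DMSO cells and one without a treatment in its label, and their values are set side by side only.

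**Figure D1:**
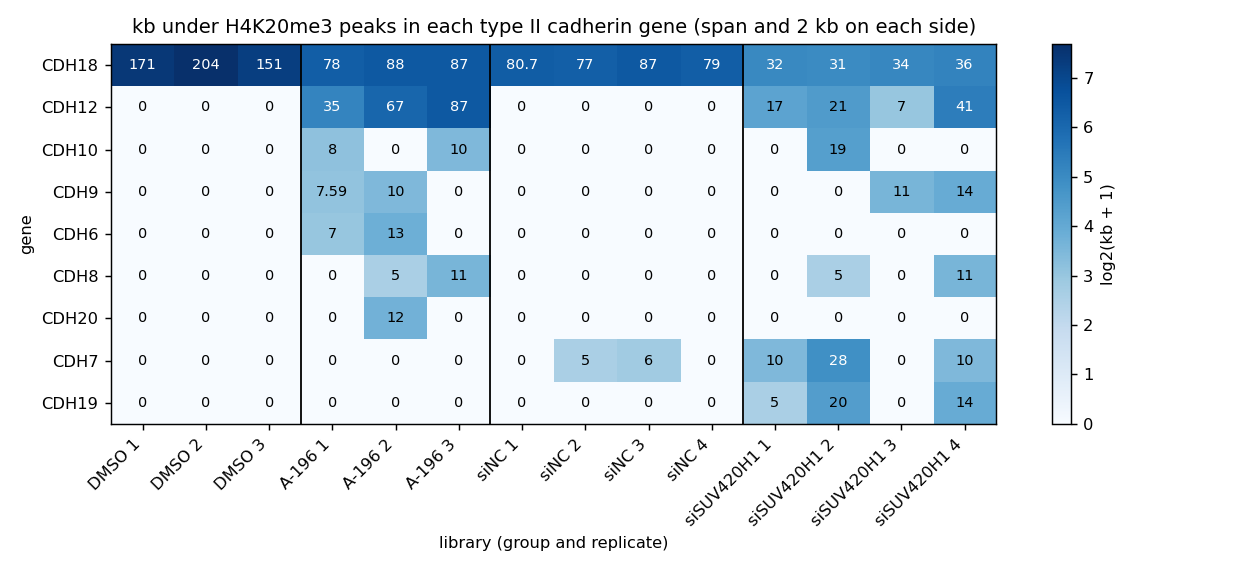
Kb under H4K20me3 peaks (numbers in the cells, colour on a log2(kb + 1) scale) for each gene (rows) in each library (columns), with vertical lines between the groups. CDH18 is covered in all 14 libraries, at 151 to 204 kb with DMSO and 31 to 36 kb with siSUV420H1, and CDH12 is covered in all 7 treated libraries and in none of the 7 control libraries.

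CDH18 was covered less in every treated library than in every control library of its arm. With A-196 peaks covered 78, 88 and 87 kb of it, and with siSUV420H1 32, 31, 34 and 36 kb. All A-196 values lie below the lowest DMSO value of 151 kb, and all siSUV420H1 values below the lowest siNC value of 77 kb. The group means were 175 ± 26.8 and 84.3 ± 5.51 kb in the inhibitor arm (SD, n = 3), a difference of -51.9%, and 80.9 ± 4.32 and 33.2 ± 2.22 kb in the siRNA arm (SD, n = 4), a difference of -58.9%. Over the whole genome the covered length differed by -34.6% and -33.7%. Per Mb of covered genome, CDH18 held 1.18 ± 0.184 kb in DMSO cells and 0.88 ± 0.0884 kb after A-196 (SD, n = 3), and 0.431 ± 0.0209 kb with siNC and 0.268 ± 0.0234 kb with siSUV420H1 (SD, n = 4), and in neither arm did the groups overlap. With every library rescaled to the mean covered length of its arm, the differences of CDH18 shrank from -91 to -37.3 kb with A-196 and from -47.7 to -25.6 kb with siSUV420H1.

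As 1 of 9 genes, CDH18 was the only family member lower without overlap in each arm, and none was lost, that is, marked in all controls of an arm and in none of its treated libraries. Of all 19866 protein-coding genes, 5.51% were lower without overlap with A-196 and 6.74% with siSUV420H1, and 1.78% and 2.98% were lost. Coverage was lower in both arms in 2.98% of all genes and in 8.35% of the long genes described next. Long genes were called more often. Among the 3247 genes of at least 103 kb, the length of the shortest member, 13.4% were lower with A-196 and 19.7% with siSUV420H1, and 2.46% and 6.34% were lost. Since the contrasts served to choose the genes, nothing is read from these shares.

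Along CDH18 the mark was heaviest towards the 3′ end. With the span cut into 4 equal parts of 276 kb, the part at the 3′ end held 110 ± 3.44 kb with DMSO (SD, n = 3) and 60.9 ± 3.43 kb with siNC (SD, n = 4), against 7 ± 7.55 kb and 0 kb in the part at the 5′ end. The same 3′ part held 30 ± 6.08 kb with A-196 (SD, n = 3) and 25.2 ± 0.957 kb with siSUV420H1 (SD, n = 4). In the part at the 5′ end, where DMSO libraries held 0 to 15 kb, A-196 libraries held 8 to 17 kb, so the groups overlapped there. The most upstream start site of CDH18 lay 2.71 kb from the nearest peak in 2 of 3 DMSO libraries and 21.3 kb in the other, and 6.71 to 81.7 kb with A-196. In the siRNA arm it lay 21.3 kb from the nearest peak in all 4 siNC libraries and 23.3 to 296 kb with siSUV420H1.

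The stretches of CDH18 covered in every library of a group show where peaks remained, in whole or in part. In DMSO, 10 stretches totalling 117 kb were common to the 3 libraries. Of these, 3 stretches (60 kb) still met a peak in every A-196 library, 2 (24 kb) in some and 5 (33 kb) in none. The kb in brackets are lengths of the control stretches, not of what stayed covered. In the 3 stretches met in every library, of 28, 18 and 14 kb, A-196 peaks covered means of 15.7, 6.67 and 11 kb. No base of the 18 kb stretch was common to the 3 A-196 libraries. In siNC, 6 stretches totalling 67 kb were common to the 4 libraries. Of these, 3 (43 kb) met a peak in every siSUV420H1 library and the other 3 (24 kb) in none. In the 3 that met a peak, of 20, 12 and 11 kb, siSUV420H1 peaks covered means of 15.5, 9.75 and 8 kb. The siSUV420H1 libraries placed no base of CDH18 outside a siNC peak, whereas the A-196 libraries placed 29.7 ± 12.1 kb (16 to 39 kb; SD, n = 3) outside any DMSO peak. After A-196, 11.9% of the bases covered in any library were covered in all 3, against 47.4% with DMSO. With siNC and siSUV420H1 these shares were 70.0% and 78.4%. Over all protein-coding genes marked in any library of a group, median shares were 60% (DMSO), 0% (A-196), 66.7% (siNC) and 63.3% (siSUV420H1).

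A pair of CDH18 stretches was covered in all 14 libraries. One, of 10 kb, lay near the 3′ end (chromosome 5, 19526001 to 19536000), and the other, of 6 kb, 296 kb into the gene from its most upstream start site (20274001 to 20280000). Both sit inside wider DMSO domains of 28 and 14 kb (19514001 to 19542000 and 20269001 to 20283000). The stretch at 19599001 to 19608000 was covered in every siSUV420H1 library and in every control library, but the DMSO domain around it (19599001 to 19611000) met a peak in 2 of the 3 A-196 libraries. That at 19492001 to 19501000, common to the siNC libraries and within a DMSO stretch, had no peak in any of the 7 treated libraries.

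**Figure D2:**
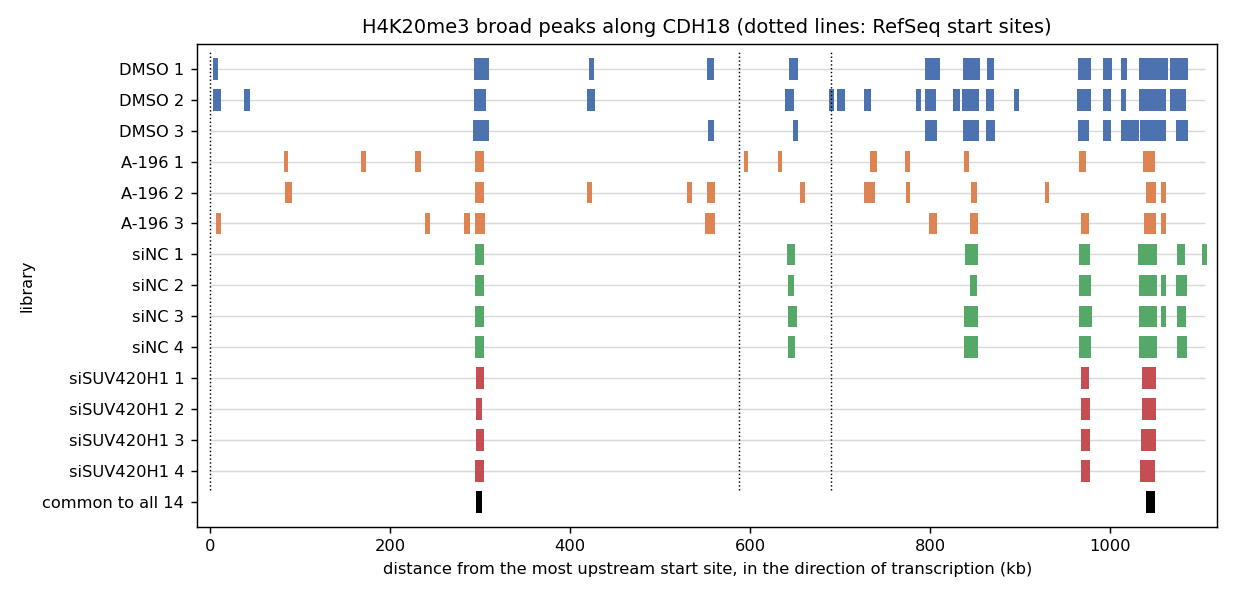
Broad peaks (coloured blocks, to scale) along CDH18 in each of the 14 libraries, with distance from the most upstream start site in kb on the horizontal axis, and the stretches covered in all 14 libraries in black at the bottom. The peaks crowd towards the 3′ end in control cells, 3 peaks remain at matching places in each siSUV420H1 library, and the A-196 peaks are scattered over the gene.

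CDH12, a brain cadherin whose span is nearly as long as that of CDH18, had no peak in any control library and was marked in every treated library. Peaks covered 35, 67 and 87 kb of it with A-196 and 17, 21, 7 and 41 kb with siSUV420H1. The spread between libraries was wide in both groups, at 63 ± 26.2 kb (SD, n = 3) and 21.5 ± 14.3 kb (SD, n = 4), yet no treated library was at 0. Per length, CDH12 held 56.9 ± 23.7 kb per Mb with A-196 (SD, n = 3) and 19.4 ± 12.9 with siSUV420H1 (SD, n = 4). Between CDH18 and CDH6, outside the cadherin spans, the same groups held 75.4 ± 20.2 and 66.3 ± 48.1 kb per Mb. Over all protein-coding spans they held 22 ± 5.10 and 26.8 ± 0.357 kb per Mb. CDH12 was the only family member gained in each arm, and also the only one higher without overlap. Of all protein-coding genes, 0.81% were gained and 1.09% higher without overlap with A-196, and 0.342% and 2.08% with siSUV420H1. Among the genes of at least 103 kb, 3.48% and 0.801% were gained, and 4.25% and 4.84% were higher without overlap. Coverage was higher without overlap in both arms in 0.161% of all genes and in 0.616% of these long ones. CDH12, with a span of 1103 kb, is far above the limit of 103 kb used for them.

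Gains in both arms were found for 3 protein-coding genes, CDH12, TMEM132D and FRG2C. They are 0.0151% of all genes, and CDH12 and TMEM132D are 0.0616% of the long ones. TMEM132D, of 832 kb, had 6.67 ± 2.89 kb with A-196 (SD, n = 3) and 6.75 ± 1.26 kb with siSUV420H1 (SD, n = 4). FRG2C, on chromosome 3 and only 2.85 kb long, had 5.29 ± 1.39 and 3.47 ± 1.89 kb. Both means exceed the length of FRG2C, so part of this coverage lay in the 2 kb added on each side. Calls without the added 2 kb were not made for TMEM132D and FRG2C. TMEM132D and FRG2C were named after their values were seen.

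The peaks over CDH12 were narrow and mostly differed in place from library to library. Of 29 peaks in A-196 libraries, 27 were under 10 kb, and 9 overlapped a peak of another A-196 library. The median width was 6 kb over CDH12 and also over all A-196 peaks, and the median share of covered bases common to the 3 libraries was 0% over all marked protein-coding genes. Of the 165 kb covered in any A-196 library, 5 kb were common to the 3 (chromosome 5, 22327001 to 22332000), within the second of 4 equal parts counted from the 5′ end. With siSUV420H1, 8 of 12 peaks overlapped one of another library, but of 62 kb covered in any library none was common to all 4. Over all protein-coding genes marked in any siSUV420H1 library the median common share was 63.3%, and 30.6% of them had no common base. The bases covered in any library of either treated group overlapped by 8 kb, 4.85% of those of A-196 and 12.9% of those of siSUV420H1. For CDH18 the same overlap was 33 kb, 89.2% of the siSUV420H1 bases and 19.6% of the A-196 bases.

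The siSUV420H1 peaks of CDH12 lay in the 5′ part of the gene. Of 4 equal parts of 276 kb, the first held 16.2 ± 10.7 kb, the second 5.25 ± 6.08 kb and the other two none (SD, n = 4). With A-196 all 4 parts held peaks, at 16.7 ± 5.13, 24 ± 7.55, 17.3 ± 11.7 and 5 ± 4.36 kb from the 5′ end (SD, n = 3). The gained calls of CDH12 ended in both arms when only peaks of at least 10 kb were used, with differences of 9.33 kb with A-196 and 5 kb with siSUV420H1.

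**Figure D3:**
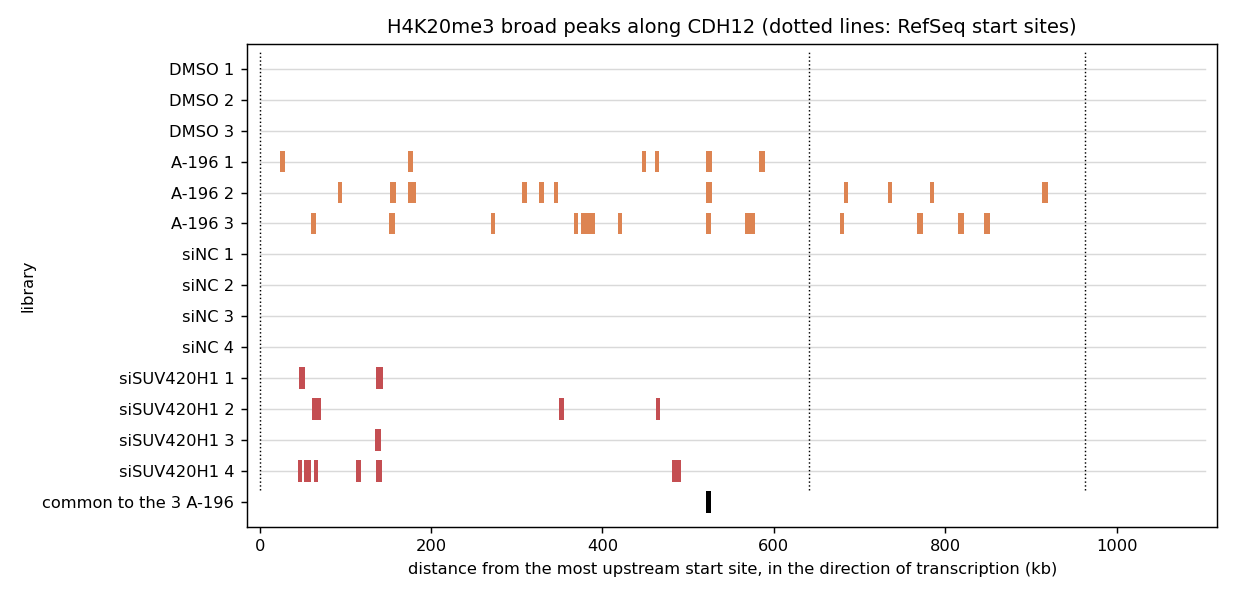
Broad peaks (coloured blocks, to scale) along CDH12 in each library, with distance from the most upstream start site in kb on the horizontal axis and the only stretch common to the 3 A-196 libraries, of 5 kb, in black. Control libraries are empty, A-196 peaks spread along most of the gene, and siSUV420H1 peaks stay within its first 2 parts of 276 kb.

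The remaining 7 genes had peaks in some but not all treated libraries, with values from 0 to 28 kb, and for none was any base common to all libraries of a group. Among all protein-coding genes marked in any library of the group, 83.2% with A-196 and 30.6% with siSUV420H1 also had no common base. CDH10, CDH9 and CDH6 lie on chromosome 5 at higher coordinates than CDH12, beyond its 5′ end. CDH10, a neuronal cadherin, was at 8, 0 and 10 kb with A-196 and at 0, 19, 0 and 0 kb with siSUV420H1. CDH9, which acts at hippocampal synapses, was at 7.59, 10 and 0 kb with A-196 and at 0, 0, 11 and 14 kb with siSUV420H1. CDH6, a cadherin of the kidney and the nervous system, was at 7, 13 and 0 kb with A-196 and at 0 in all 4 siSUV420H1 libraries. In each of these genes at least 1 treated library per arm was at 0, as the controls were, so the groups touch.

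CDH20, CDH7 and CDH19 on chromosome 18 differed between the arms in where peaks appeared. CDH7 and CDH19, a cadherin of Schwann cell precursors, had no peak in any library of the inhibitor arm. With siSUV420H1 CDH7 was at 10, 28, 0 and 10 kb and CDH19 at 5, 20, 0 and 14 kb. CDH20, a neural cadherin, had 12 kb in A-196 replicate 2, the library with the most peaks of its group, and none in any other library. The siNC peaks of CDH7 in replicates 2 and 3 (65821001 to 65826000 and 65821001 to 65827000) met peaks of siSUV420H1 replicates 1, 2 and 4. Peaks of different libraries of a group also met in CDH10 with A-196, where 2 of 3 did so, and in CDH19 with siSUV420H1, where 2 of 7 did. CDH8 on chromosome 16, a cadherin of cortical synapses, was at 0, 5 and 11 kb with A-196 and at 0, 5, 0 and 11 kb with siSUV420H1. A difference between the arms was not tested for any of these genes.

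Peaks outside CDH18 were short and concentrated in particular libraries. In A-196 cells, 42 of 44 such peaks in the other 8 genes were under 10 kb, with a median of 6 kb, and in siSUV420H1 cells 34 of 37, also with a median of 6 kb. Over all chromosomes 25440 of 31767 A-196 peaks and 21926 of 39498 siSUV420H1 peaks were under 10 kb, with medians of 6 and 9 kb. The 8 genes together held 57.6, 107 and 108 kb with A-196 and 32, 93, 18 and 90 kb with siSUV420H1. Replicates 2 and 4 of siSUV420H1 thus stood above replicates 1 and 3. Over the genome replicates 2 and 4 also held more peaks (10203 and 10167, against 9803 and 9325). They covered somewhat more length (130 and 126 Mb, against 124 and 118 Mb). Fewer protein-coding genes were marked in them (2277 and 2284, against 2439 and 2412). Without siSUV420H1 replicates 2 and 4, a setting chosen after seeing the data, CDH12 was still the one gene gained and CDH18 the one gene lower without overlap. Leaving out A-196 replicate 1 added CDH8 to the gained genes, leaving out replicate 2 added CDH10, and leaving out replicate 3 added CDH6 and CDH9. Leaving out siSUV420H1 replicate 3 added CDH19 as gained and CDH7 as higher without overlap.

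Summed over the 9 genes, the lower coverage of CDH18 and the higher coverage of the others nearly balanced. Peaks over the family summed to 175 ± 26.8 kb in DMSO cells and to 175 ± 34.3 kb after A-196 (SD, n = 3), and to 83.7 ± 6.34 kb with siNC and 91.5 ± 39 kb with siSUV420H1 (SD, n = 4), and the groups of each arm overlapped. The number of marked genes per library was 1 in each DMSO library and 4 to 6 with A-196, 1 or 2 with siNC and 3 to 6 with siSUV420H1. Over all protein-coding genes, 2306 to 2385 were marked in DMSO libraries and 2138 to 3684 after A-196, and 3146 to 3260 with siNC and 2277 to 2439 with siSUV420H1. Rescaled to the mean covered length of the arm, the difference of the sum was 75.5 kb with A-196 and 44.1 kb with siSUV420H1, and in the inhibitor arm the groups no longer overlapped. With peaks of at least 10 kb alone, it was -82.3 kb with A-196, again without overlap but in the opposite direction, and -34 kb with siSUV420H1, where the groups overlapped. The median difference over the 9 genes was 5.33 kb with A-196 and 4.75 kb with siSUV420H1, beside a median of 0 kb over all protein-coding genes in each arm. Of these 19866 genes, only 5613 were marked in any library of the inhibitor arm and 3959 in any of the siRNA arm. Their median of 0 kb follows from the unmarked genes, whereas the 9 genes were chosen from their coverage, so nothing is read from this comparison.

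The stretch that runs from CDH18 to CDH6 on chromosome 5 (19469296 to 31331146) holds only 2 other annotated protein-coding genes, PRDM9, a meiotic histone methyltransferase, and LOC124901178. Outside the 5 cadherin spans its 9.18 Mb held 277, 325 and 241 kb under peaks with DMSO and 514, 677 and 885 kb with A-196. In the siRNA arm they held 114, 179, 230 and 98 kb with siNC and 267, 1148, 228 and 793 kb with siSUV420H1. A-196 values did not overlap those of DMSO, whereas siSUV420H1 replicate 3 fell just below the highest siNC library. Per Mb, this gene-poor remainder held 30.6 ± 4.59 kb in DMSO cells and 75.4 ± 20.2 kb after A-196 (SD, n = 3), while the cadherin spans within it held 65.5 ± 9.99 and 61.9 ± 9.85 kb. All protein-coding spans of the genome were at 29 ± 0.803 and 22 ± 5.10 kb per Mb in the same libraries. The siSUV420H1 replicates 2 and 4, which held most kb over the 8 genes, also held most kb here, and the part of this in the values of the 8 genes was not tested.

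The stretch from CDH20 to CDH19 on chromosome 18 (61331430 to 66606090), which also holds 20 other protein-coding genes including BCL2 and the SERPINB cluster, went the other way outside the cadherins. Its remainder held 455 to 475 kb under peaks in DMSO cells and 137 to 265 kb after A-196, and 370 to 419 kb with siNC and 210 to 435 kb with siSUV420H1, where replicate 2 was above all siNC libraries. The 3 cadherins within it were at 0 kb in every DMSO library. Within 1 Mb on either side of CDH8, where no other protein-coding gene lies, peaks covered 28 to 34 kb with DMSO, 23 to 49 kb with A-196, 30 to 42 kb with siNC and 27 to 135 kb with siSUV420H1, so the groups overlapped in both arms.

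**Figure D4:**
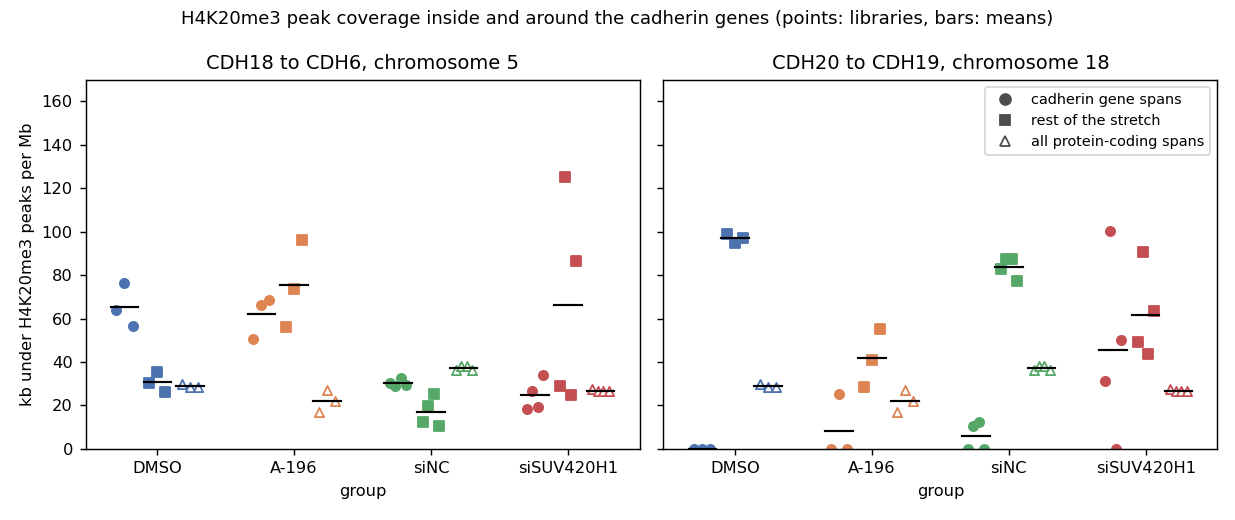
Kb under H4K20me3 peaks per Mb (vertical axis) in the cadherin spans (circles), the rest of the stretch (squares) and all protein-coding spans (triangles) for each library by group, with bars for the means. On chromosome 5 the rest of the stretch averages 30.6 kb per Mb with DMSO and 75.4 with A-196, and on chromosome 18 it averages 97 and 41.6.

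Among 29 other cadherins and catenins, coverage was lower without overlap for 4 and higher for 1 with A-196, and lower for 6 and higher for 2 with siSUV420H1. Over all protein-coding genes 5.51% were lower and 1.09% higher with A-196, and 6.74% and 2.08% with siSUV420H1. The other type II cadherins CDH11, CDH22 and CDH24 had no such difference in either arm, and CDH5, the vascular endothelial cadherin, was at 5.25 ± 3.77 kb with siNC and 10.2 ± 1.26 kb with siSUV420H1 (SD, n = 4), without overlap. Among the 5 type I cadherins none differed without overlap, and CDH1, CDH3 and CDH15 had no peak in any library. CDH4 was free of peaks in DMSO cells, but its A-196 libraries ran from 0 to 96 kb, with a mean of 49.7 ± 48.1 kb (SD, n = 3). It had no peak in the siRNA arm. CDH2 had peaks in the siRNA arm alone, where siSUV420H1 libraries at 6 to 9 kb met siNC libraries at 9 kb. Peaks in only some A-196 libraries were thus not confined to the 9 genes. Of the 7 desmosomal cadherins, which join keratin filaments between squamous cells, 3 were lost with A-196 and 2 with siSUV420H1, beside 1.78% and 2.98% of all protein-coding genes. DSG1 went from 9.58 ± 2.52 to 0 kb with A-196 (SD, n = 3) and from 4 ± 0.5 to 0 kb with siSUV420H1 (SD, n = 4), and DSG4 from 2.24 ± 0.577 and 2.16 ± 0.5 kb to 0. The DSG4 control values, of 1.91 to 2.91 kb per library in each arm, lay wholly or mostly in the 2 kb added beyond the gene. The siNC values of DSG1, of 3.25 to 4.25 kb per library, also lay partly in the 2 kb added beyond that gene. Calls without the added 2 kb were not made for these other adhesion genes. DSC1 was at 10.8 ± 4.28 kb with DMSO and at 0 with A-196, and DSC3 at 9.75 ± 0.5 kb with siNC and 5.25 ± 3.59 kb with siSUV420H1.

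CDH26, an epithelial cadherin, was lower in both arms, at 20.9 ± 2.65 and 5.31 ± 4.70 kb with DMSO and A-196 (SD, n = 3) and 25.4 ± 3.11 and 7.25 ± 1.71 kb with siNC and siSUV420H1 (SD, n = 4). CDH17, the liver and intestine cadherin, was lost with siSUV420H1, from 7 ± 1.41 kb to 0 (SD, n = 4). In the inhibitor arm CDH17 was at 0 kb with DMSO and at 3.33 ± 2.89 kb with A-196 (0 to 5 kb, SD, n = 3). For CDH13 the A-196 libraries spread from 5 to 62 kb and those of DMSO from 0 to 11 kb. In the siRNA arm CDH13 libraries held 20 to 25 kb after siSUV420H1 and 24 to 28 kb after siNC, so the groups overlapped in both arms. Of the catenins, which link cadherin tails to actin, the neural CTNND2 was gained with A-196 at 39 ± 14.7 kb (SD, n = 3) and had no peak in the siRNA arm, and the neural CTNNA2 was gained with siSUV420H1 at 8.25 ± 2.22 kb (SD, n = 4). CTNNA3, an alpha catenin of heart muscle, was at 32.8 ± 2.99 kb with siNC and 3.25 ± 3.77 kb with siSUV420H1. CTNNB1, CTNND1, CTNNA1, JUP and ARVCF, the catenins and partners used in epithelium, had no peak in any library.

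Likeness to the summed profile of the 9 genes was measured by Pearson's r of log2(kb + 1) across the 14 libraries, over 1111 other genes of at least 103 kb with a peak in at least 7 libraries. The 5 most alike were ANKRD30B (r = 0.87), ABCA9 (0.83), SEMA3C (0.83), EGFR (0.76) and C6 (0.76). SEMA3C encodes a secreted guidance cue, EGFR the epidermal growth factor receptor and C6 a complement component. ANKRD30B had mean coverage of 70.6 kb with DMSO, 33.6 kb with A-196, 0 kb with siNC and 2.21 kb with siSUV420H1. EGFR had 12.7, 17.1, 5.23 and 2.98 kb in the same order, so its A-196 mean was above its DMSO mean. The libraries of an arm share an IgG control, covered length differs between the groups of an arm, and the summed profile differs mainly between arms, so these values only describe the 14 libraries.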

How the data were processed

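For each H4K20me3 library the authors deposited 1 list of intervals, other values such as scores being absent. The submitters' processing notes name hg38, cutadapt 4.4, Bowtie, Picard 2.27.3 and bedtools 2.30.0, and the deposited lists are named as duplicate-free and as called against 1 IgG library. How peaks were called is not given in the sources used here. Interval ends fall on multiples of 1 kb, no peak is narrower than 5 kb and no gap smaller than 2 kb. Of 24 samples, the 14 H4K20me3 libraries were used, grouped by title, and the other 10 were not analysed here.

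Gene spans came from RefSeq (GRCh38.p14), and 190 coding genes off the primary chromosomes were left out. Kb under peaks were computed in Python 3.11.15 with NumPy 2.4.6, and figures drawn with matplotlib 3.10.9. The interval code was tested on simulated data. The members and lists were chosen with earlier results of these data known, so no groups were tested, and calls rest on non-overlap, loss or gain. Named beside the members were, per list, up to 4 other adhesion genes called in an arm, by size of difference, genes without a peak as a group, and the 5 genes most alike. CDH2, CDH4 and CDH13, called in neither arm, were named after their values were seen. Alternatives covered flank, peak width and number, merging, scaling, medians, the marking threshold and single libraries.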

Additional observations from a re-analysis of the deposited data

Results flagged for a closer look

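In siSUV420H1 cells CDH10 was at 19 kb in replicate 2 and at 0 kb in the other 3 libraries, so that the gap to the nearest library was the whole range of the group. With 3 libraries at 0 any value above 0 in the other one would stand apart in this way, so this describes 1 library and is no test. It was the only such case among 13 values of members and their sums in groups of 4 libraries.

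For CDH5 the means differed in opposite directions in the arms. The difference was -4.67 kb with A-196, where all 3 libraries were at 0 kb, but DMSO libraries ran from 0 to 9 kb, so the groups overlapped. It was 5 kb with siSUV420H1, where the 4 libraries at 9 to 12 kb lay above the siNC libraries at 0 to 8 kb. The difference between the arms was not tested.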

How the results depend on the processing

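The lower coverage of CDH18 without overlap held in both arms under every alternative run; the gained call of CDH12 held in both arms under every alternative except peaks of at least 10 kb, where 0 members were gained and 0 were higher without overlap in either arm. Under that setting the summed difference was -82.3 kb with A-196 and -34 kb with siSUV420H1; this alternative leaves out the narrow peaks by construction. Rescaled to the mean covered length of the arm it was 75.5 and 44.1 kb, and without siSUV420H1 libraries 2 and 4 it was -25.7 kb, without overlap. With single libraries left out it ran from -12.3 to 19.7 kb with A-196 and from -3.68 to 21 kb with siSUV420H1, members gained from 1 to 3 and from 1 to 2, and members higher without overlap from 1 to 3 in each arm; fewer libraries make these calls laxer. Kb common to a group were 117 for DMSO, 25 for A-196, 67 for siNC and 29 for siSUV420H1. In all but 1 library or more they were 162 for DMSO, 88 for A-196, 77 for siNC and 43 for siSUV420H1. With peaks of at least 10 kb they were 95 for DMSO, 20 for A-196, 43 for siNC and 14 for siSUV420H1, and with the 8000 widest peaks 52 for siNC and 23 for siSUV420H1. With single libraries left out they ran from 118 to 144 for DMSO, 38 to 54 for A-196, 67 to 75 for siNC and 30 to 37 for siSUV420H1. No paired analysis was possible because no label says that equal replicate numbers mark a shared dish or day, and the results come from no test. The unknown depth limits what an absent peak says.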
